A study of Mus musculus with 2 samples.

Results

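Blood vascular endothelial cells, the cells that line arteries, capillaries and veins, were examined among tdT-positive cells sorted from E14 mouse embryos. The cells were chosen by measured values. A cell was kept when its unique molecular identifiers (UMIs, each standing for 1 captured transcript) for Pecam1, Kdr and Cdh5 summed to 3 or more and those for the lymphatic genes Mmrn1, Prox1 and Lyve1 summed to 2 or fewer. Among 22086 cells with at least 1000 UMIs and at most 10% of UMIs in mitochondrial genes, drawn from 27766 barcodes, 773 met the rule. They numbered 264 of 12144 cells in library 1 and 509 of 9942 cells in library 2.

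The study removed the splicing factor SRSF2 from the Myf5 lineage. Embryos had both Srsf2 alleles floxed (SRSF2f/f, the knockout, MKO/tdT) or 1 floxed and 1 wild-type allele (SRSF2f/w, the control, Het/tdT), and all carried Myf5-Cre from C57BL/6J mice and a Rosa26 reporter that turns on tdT wherever Cre has acted. Myf5-Cre marks cells with a history of Myf5, a muscle-determination gene, and the sort kept cells bright for tdT. The embryos were decapitated and eviscerated before dissociation, trunks and limbs were digested with collagenase and dispase, and each genotype gave 1 library of 10x Genomics 3′ chemistry. The number of embryos per library is not given in the sources used here. With 1 library per genotype no test between genotypes was possible, and every interval below is a 95% interval for counting error only.

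The genotype labels of the libraries disagree between sources. The library titled SRSF2f/f/Myf5-Cre/tdT, called library 1 here, carries the control heading (Het/tdT) in the quality-control panels that go with the same cell number. The library titled SRSF2f/w/Myf5-Cre/tdT, called library 2 here, carries the mutant heading (MKO/tdT). Srsf2 itself was lower in library 2, which goes against the titles. The gene had 875 UMIs in library 1 and 1456 in library 2 over the 773 cells, or 196 and 141 CPM (counts per 1000000 UMIs), a log2 ratio of -0.48 (-0.60 to -0.35). An Srsf2 UMI was found in 80.7% and 78.8% of these cells. The log2 ratio of this share was -0.03, and -0.15 with every cell thinned at random to 2000 UMIs, with intervals that included 0. With 4000 UMIs it was -0.33 (-0.57 to -0.10). The log2 ratio of the Srsf2 level was -0.34 in lymphatic endothelial cells and -0.53 in cells without a UMI of Pecam1, Kdr or Cdh5. The 10 skeletal muscle genes, markers of the main lineage in which Myf5-Cre acts, were lower in library 2 as well (log2 -2.80 in those cells). The paper reports a smaller skeletal muscle share and a larger endothelial share in the mutant, which also goes against the titles. It reports fewer retained cells for the control than for the mutant, and library 2 kept fewer cells here (9942 against 12144), which goes with the titles. Whether the counted Srsf2 3′ end lies in the part that Cre removes is not given in the sources used here. Directions are therefore given by library number, and every log2 ratio is library 2 over library 1.

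Endothelial cells are held together by VE-cadherin (Cdh5) and PECAM-1 (Pecam1), and their growth is driven by VEGF acting on VEGFR2, the product of Kdr. Emcn encodes endomucin, a sialomucin of capillary and venous surfaces. During development a common capillary plexus is remodelled into arteries, under VEGF and Notch signals, into veins, and into capillaries that are fenestrated or continuous. Capillaries of the central nervous system form a tight barrier under Wnt signals and lose the fenestral diaphragm protein PLVAP.

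The promoters of Kdr and Emcn are shown because these genes mark the same cells and only Kdr served in the rule. Both are the 250 bases before the start that RefSeq annotates in the mouse assembly GRCm38.p6, read 5′ to 3′ on the gene's strand. Capitals mark GGAAG on either strand (CTTCC on the strand printed), letters that include the GGAA core bound by ETS factors. GGAA followed by another letter was not marked or counted, though both windows hold it.
Kdr, chr5:75978456-75978705, minus strand: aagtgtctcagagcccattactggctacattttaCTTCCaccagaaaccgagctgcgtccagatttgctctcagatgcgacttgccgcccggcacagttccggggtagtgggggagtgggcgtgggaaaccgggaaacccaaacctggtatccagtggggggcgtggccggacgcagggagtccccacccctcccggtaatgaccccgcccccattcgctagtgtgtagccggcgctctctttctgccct
Emcn, chr3:137340828-137341077, plus strand: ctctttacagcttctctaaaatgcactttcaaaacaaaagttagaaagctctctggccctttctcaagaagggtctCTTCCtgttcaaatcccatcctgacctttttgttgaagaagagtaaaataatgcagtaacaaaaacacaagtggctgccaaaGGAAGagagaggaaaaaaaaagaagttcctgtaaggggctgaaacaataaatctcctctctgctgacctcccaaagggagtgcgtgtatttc
Kdr held 1 match and Emcn 2. Of 32851 promoter windows of this length, 64.1% held at least 1 match and 29.1% held 2 or more, so the letters are common and a match is only a description. In the GRCm38 annotation (GENCODE M21) Kdr lies at chr5:75932827-75978458 on the minus strand, Emcn at chr3:137341067-137432185 on the plus strand, Pecam1 at chr11:106654217-106750628 on the minus strand and Cdh5 at chr8:104101625-104144511 on the plus strand. The starts of the 2 annotations differ slightly, so both windows run a few bases into the GENCODE gene.

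Emcn, which the rule did not use, checked the label. It had a UMI in 573 of the 773 cells (74.1%), in 70.5% of the cells of library 1 and 76.0% of those of library 2. Its share was higher in cells with more UMIs of Pecam1, Kdr and Cdh5 (rule UMIs). It was 2.43% of the 18167 cells with none of these UMIs and at most 2 lymphatic UMIs (median depth 10012 UMIs), taken as background from free RNA, and 9.58% of the 261 cells with 2, just outside the rule. Just inside, Emcn was found in 16.2% of the 105 cells with 3, in 12.2% of the 49 cells with 4 and in 4 of the 25 cells with 5. The share was then 60.0% at 6 to 7, 86.1% at 8 to 10 and 96.6% of the 322 cells with more than 25. The 179 cells with 3 to 5 UMIs therefore held Emcn in 15.1% (10.2 to 21.2) and a median of 2 of 25 endothelial identity genes, whereas the 594 cells with 6 or more held it in 91.9% (89.4 to 94.0) and had a median of 19. The identity list holds endothelial receptors and surface genes such as Tie1, Tek, Flt1 and Cldn5.

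Clustering of the 773 cells on their own gave 8 clusters, which are descriptions because the same genes placed the cells. In 5 of them (clusters 1, 2, 3, 6 and 8) the median cell had at least 12 of the 25 identity genes, a limit chosen after the values were seen. These 5 clusters held 551 cells, 71.3% of those that met the rule, with 185 cells in library 1 and 366 in library 2. The other 222 cells were in clusters 4, 5 and 7, which were led by genes of other tissues. In clusters 5 and 7 0 of the 75 and 0 of the 27 cells had 12 or more identity genes, which goes against the label, while 57 of the 120 cells of cluster 4 did.

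**Figure D1:**
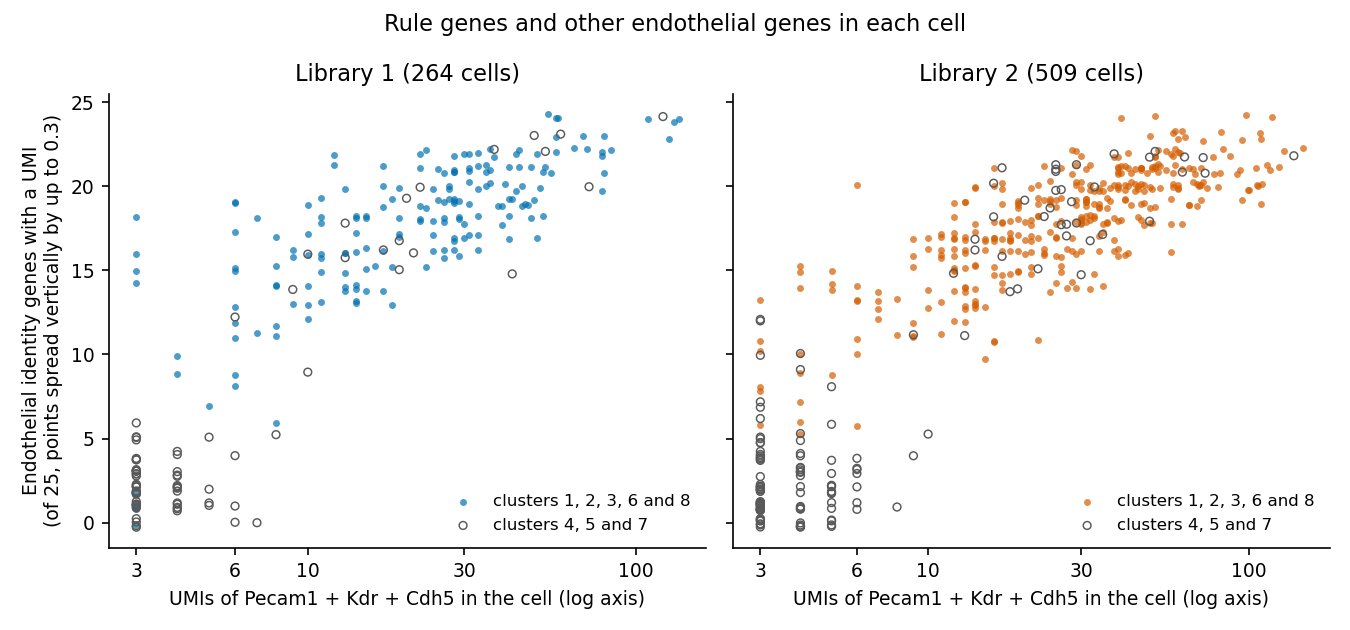
Each point is 1 cell that met the rule, by its summed UMIs of Pecam1, Kdr and Cdh5 (log axis) and the number of the 25 identity genes with a UMI, in library 1 (264 cells) and library 2 (509 cells). Filled points are clusters 1, 2, 3, 6 and 8 and open points clusters 4, 5 and 7, which fill the lower left corner at 3 to 5 UMIs, while a group of open points with many identity genes lies among the filled ones.

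Cluster 4 (120 cells) was led by Acan, Col9a3, Col2a1 and Matn1, which encode proteins of cartilage matrix. All 5 cartilage genes and all 8 mesenchyme genes fixed as markers were at least 1.5-fold higher there than in the remaining cells. The cluster was mixed. Its cells had a median of 5.5 rule UMIs, a median of 10 identity genes and Emcn UMIs in 53.3% of them, at a median of 22068 UMIs per cell. Doublets were not called, and their part in this cluster was not tested.

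Clusters 5 and 7 entered the rule through 1 gene each. Cluster 5 (75 cells) had 297 UMIs of Cdh5 but 13 of Pecam1 and 1 of Kdr, and Emcn in 9.33% of cells. It was led by Ptgds, Cldn11, Vtn, Slc6a13 and Wnt6 and had all 8 mesenchyme genes raised. Cluster 7 (27 cells) had 97 UMIs of Pecam1 but 1 of Kdr and 6 of Cdh5, and Emcn in 0 of 27 cells. Its leading genes were the cytotoxic granule gene Gzma and the T-cell receptor genes Cd3g, Trbc2 and Trbc1. Pecam1 is also a surface protein of leukocytes. Cluster 7 held 4 cells in library 1 and 23 in library 2.

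Among the endothelial clusters, 2 were named from the fixed marker lists. Cluster 6 (48 cells) was barrier capillary-like, with 16 of 17 barrier genes raised and 6 of them among its 10 leading genes. These were Spock2, a proteoglycan, Slco1c1, a thyroid hormone transporter, Mfsd2a, the lysophospholipid transporter of the blood-brain barrier, Slc38a5, an amino acid transporter, Foxq1, a forkhead factor, and Apcdd1, a Wnt inhibitor. Plvap was at 37.1 CPM in cluster 6, against 313 CPM in cluster 1 and 302 CPM in cluster 2. Cluster 8 (24 cells) was arterial-like, with 13 of 16 arterial genes raised. Bmx, a tyrosine kinase of arterial endothelium, and Gja5, a gap junction protein, were among its leading genes beside Eln, Fbln5 and Mgp, genes of elastic and extracellular matrix. Emcn was at 106 CPM there, the lowest of the 5 endothelial clusters. The venous list was also higher there than in the remaining cells (532 against 383 CPM), with 1 of its 8 genes raised. This was Vwf, the von Willebrand factor gene and another of the leading genes, whereas Aplnr, the apelin receptor of veins and capillaries, had 0 UMIs.

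Clusters 1 to 3 were left unnamed, though genes of the vessel lists were raised in clusters 1 and 2. Cluster 1 (191 cells) was led by Pgf, a VEGF family ligand, and Edn1, the vasoconstrictor peptide endothelin-1. It had 6 of 10 tip cell, 7 of 16 arterial and 5 of 12 peripheral capillary genes raised. Cluster 2 (167 cells) was led by replication histones and by Cenpe, Birc5 and Tpx2 of the mitotic spindle, and had 15 of 18 cell cycle genes raised. It also had 10 of 12 peripheral capillary genes raised, with the list at 3891 against 2075 CPM in the remaining cells. Cluster 3 (121 cells) had a median of 8011 UMIs per cell and was led by the adult globin gene Hbb-bs. The erythroid genes summed to 71671 CPM there, against 14582 CPM in the remaining cells. The lymphatic list was also higher in cluster 3, at 603 against 179 CPM, with 1 of its 10 genes (Flt4) raised. The 3 lymphatic genes of the rule were at 34.7 against 22.7 CPM. At Leiden resolution 0.3 cluster 3 merged with other cells (Jaccard index 0.31).

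**Figure D2:**
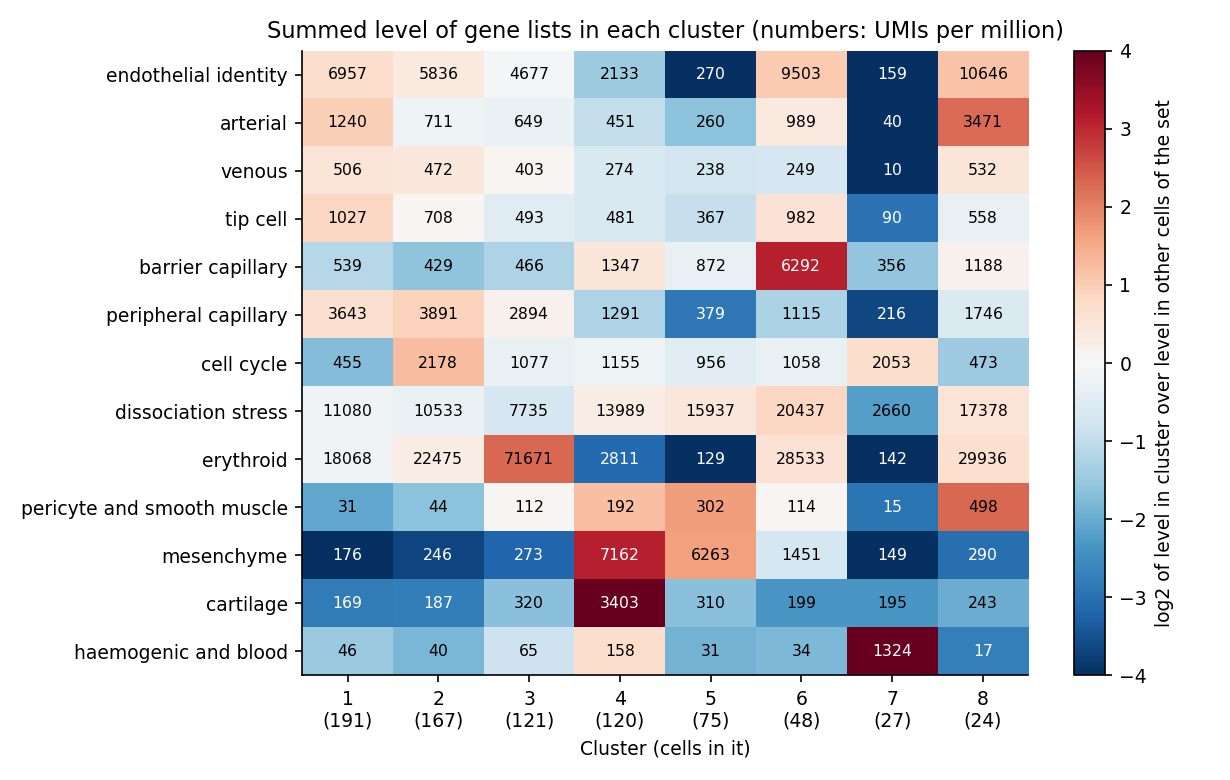
Summed level of 13 gene lists (rows) in each of the 8 clusters (columns, with their cell numbers), printed in CPM, with colour for the log2 ratio to the other cells that met the rule. The barrier capillary list is highest in cluster 6, the arterial list in cluster 8, the cell cycle list in cluster 2 and the cartilage list in cluster 4.

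Against cells without a UMI of the rule genes, the cells that met the rule carried endothelial identity genes at a high level, given as a description. The 25 genes summed to 4870 CPM over all 773 cells, against 135 CPM, a 36.1-fold difference, and to 6485 CPM in the 551 cells of the endothelial clusters, which were kept for having these genes. The next values are for those 551 cells. Among genes outside the rule, Gpihbp1, the capillary anchor of lipoprotein lipase, had the largest ratio, 248 against 0.267 CPM. It was 929-fold higher over both libraries, 1694-fold in library 1 and 543-fold in library 2. Robo4, a guidance receptor that stabilises vessels, was 861-fold higher in library 1 and 261-fold in library 2, and Sox17, an arterial transcription factor, 625-fold and 196-fold. Peripheral capillary genes, among them the fatty acid carrier Fabp4, were 11.3-fold higher as a sum. Barrier genes were not higher as a sum (997 against 1424 CPM), but the sum rested on Itm2a (260 against 1205 CPM). The other 16 genes summed to 737 against 220 CPM. Mesenchyme genes were at 333 CPM against 5650 CPM (2294 CPM over all 773 cells), and skeletal muscle genes at 78.5 CPM against 720 CPM. Myf5, the driver of the reporter, had 0 UMIs in library 1 and 1 UMI in library 2 over the endothelial clusters.

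Blood vascular endothelial cells made up a larger share of library 2. They were 2.17% (1.92 to 2.45) of the cells of library 1 and 5.12% (4.69 to 5.57) of those of library 2, a 2.36-fold difference (log2 1.24, 1.02 to 1.45). The share of the 5 endothelial clusters alone was 1.52% and 3.68%. Lymphatic endothelial cells differed more, with 1.74% and 6.57%. Shares follow the sort and the loss of any other population, so more endothelial cells and fewer cells of another kind cannot be told apart. The libraries also differed in quality within these cells, with median depths of 12582 and 15407 UMIs, and median mitochondrial shares of 4.39% and 3.42%. No barcode sequence was shared between the cells of the 2 libraries that met the rule.

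Few genes differed at least 2-fold between the libraries within the endothelial clusters. Of 7230 genes with at least 100 UMIs over both libraries, 85 did (1.18%), with 35 higher (0.484%) and 50 lower (0.692%) in library 2. Over all 773 cells, 120 of 8839 genes did (1.36%), 0.656% higher and 0.701% lower. In lymphatic endothelial cells 156 of 9106 did (1.71%), 1.21% higher and 0.505% lower. In cells without a rule UMI, where many cell types are summed, 1392 of 15167 did (9.18%), 7.21% higher and 1.97% lower. Intervals that lay wholly above or below 0 covered 13.2% and 16.3% of the genes tested in the endothelial clusters. The values below are for the 5 endothelial clusters unless stated.

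Endothelial identity genes had a log2 ratio of -0.06 (-0.08 to -0.04) over all 773 cells, with 5017 CPM in library 1 and 4806 CPM in library 2. In the endothelial clusters, which were kept for these same genes, the sums were 6669 and 6407 CPM and none of the 25 differed 2-fold. Emcn was at 480 and 629 CPM (log2 0.39, 0.30 to 0.48), and Cldn5, the main claudin of endothelial tight junctions, at 1244 and 1074 CPM (log2 -0.21). The 23 endothelial transcription factors summed to 3727 and 3390 CPM (log2 -0.14), and none of the 21 with enough UMIs differed 2-fold. The ETS factor Ets1 was at 317 and 232 CPM (log2 -0.45, -0.57 to -0.33), Fli1 at 98.1 and 95.6 CPM, and Erg at 85.3 and 87.6 CPM. SOX factors moved both ways, Sox17 at 195 and 242 CPM and Sox7 at 213 and 165 CPM.

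Barrier capillary genes were lower in library 2 as a sum. The list summed to 1295 and 870 CPM (log2 -0.57, -0.63 to -0.51). Of its 14 genes with enough UMIs, 6 were at least 2-fold lower and 0 higher, against 0.692% lower among all genes tested. Of the 14 intervals, 11 lay below 0, against 16.3% of all genes tested. The share of cells with 3 or more UMIs of the list, over all cells that met the rule thinned to 2000 UMIs, did not show the difference (log2 -0.029, -0.42 to 0.36). Mfsd2a was at 43.5 and 19.5 CPM (log2 -1.16, -1.51 to -0.80), though as a mean over all cells that met the rule its ratio was -0.32. It was found in 11.9% and 6.83% of cells, and after thinning to 2000 UMIs in 3.78% and 3.60% (log2 -0.07, -1.37 to 1.23). With 4000 UMIs it was found in 15 of 183 and 12 of 356 cells (log2 -1.28, -2.35 to -0.22), an interval below 0. Slc38a5 was at 61.7 and 26.1 CPM (log2 -1.24), but over all cells that met the rule its ratio turned to 0.091 with a mitochondrial limit of 5%. Apcdd1 was at 59.0 and 20.7 CPM (log2 -1.51), and Lef1, the nuclear factor of Wnt signalling, at 17.9 and 7.32 CPM. The other two were Slc7a5, the large neutral amino acid transporter (58.3 and 25.4 CPM), and Foxf2, a forkhead gene of brain vessels (23.3 and 7.18 CPM). The glucose transporter Slc2a1 was at 186 and 136 CPM (log2 -0.45), and the efflux pump Abcg2 at 173 and 191 CPM, an interval that reached 0.

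Within the barrier capillary-like cells the difference was smaller. Cluster 6 held 22 of the 185 endothelial-cluster cells of library 1 and 26 of the 366 of library 2. These counts are only set side by side, because the genes that define the cluster are those that differed. Within cluster 6 the barrier list was at 6610 and 6016 CPM (log2 -0.14, -0.21 to -0.06). Mfsd2a within cluster 6 was at 318 and 287 CPM (log2 -0.14, -0.51 to 0.22), and clusters 1 and 2 had 1 UMI of it each. Foxf2 differed more within the cluster, with 59 and 24 UMIs in cluster 6 (148 and 51.9 CPM, log2 -1.51, -2.26 to -0.80). The barrier list did not differ in clusters 1 and 2 beyond counting error (log2 -0.02 and 0.00). The mitochondrial share moved with this result. In cluster 6, 16 of 22 cells of library 1 and 9 of 26 cells of library 2 had more than 5% mitochondrial UMIs, and with a limit of 5% the ratio of the barrier list over all cells that met the rule went from -0.41 to 0.012. Its part in the difference was not tested.

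**Figure D3:**
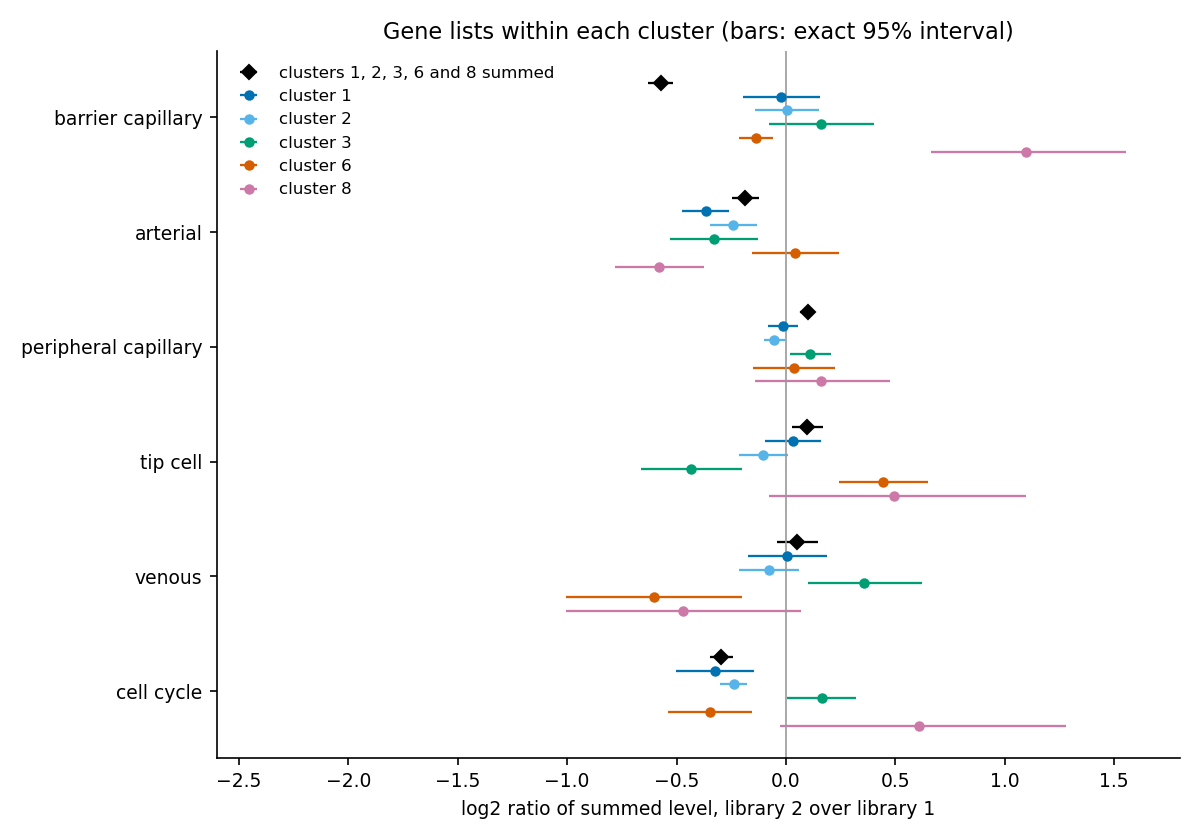
Log2 ratio (library 2 over library 1) of the summed level of 6 gene lists, over the 5 endothelial clusters summed (black diamonds) and within each of them (coloured points, bars are exact 95% intervals). The barrier capillary list is at -0.57 over all 5 but at -0.14 within cluster 6 and near 0 in clusters 1 and 2.

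Arterial and Notch genes were slightly lower in library 2 as sums, while most single genes had intervals that included 0. The 16 arterial genes summed to 1054 and 926 CPM (log2 -0.19, -0.25 to -0.12), with none of 13 past 2-fold. Of the 13 intervals, 4 lay below and 1 above 0, against 16.3% and 13.2% of all genes tested. Dll4, the Notch ligand of arteries and tip cells, was at 65.1 and 42.4 CPM (log2 -0.62, -0.89 to -0.35), and within cluster 1 at 104 and 50.5 CPM (log2 -1.04, -1.48 to -0.59). Gja4, a connexin, was at 52.9 and 29.7 CPM (log2 -0.83). The Notch pathway genes summed to 969 and 828 CPM (log2 -0.23), led by the target Hes1 at 432 and 332 CPM. Of 10 intervals, 2 lay below 0 and 0 above, against 16.3% and 13.2% of all genes tested. In the arterial-like cluster 8, with 10 and 14 cells, the arterial list was at 4442 and 2972 CPM (log2 -0.58, -0.78 to -0.38). The arterial ratio over all cells that met the rule also went from -0.17 to 0.0015 with the 5% mitochondrial limit. Venous genes summed to 445 and 462 CPM (log2 0.05, -0.04 to 0.15).

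Tip cells lead new sprouts, and their genes did not share a direction. Of 10 genes, 4 had intervals above 0 and 4 below, against 13.2% and 16.3% of all genes tested. The list summed to 767 and 820 CPM (log2 0.10). Pgf was at 60.3 and 98.7 CPM (log2 0.71), and it was found in 22.7% and 32.0% of cells (log2 0.49, 0.05 to 0.93). After thinning the intervals included 0, with log2 ratios of 0.57 at 4000 UMIs and -0.33 at 2000 UMIs. Cluster 1, which was led by Pgf, held 18.6% and 27.9% of the cells that met the rule, and cluster 3 held 20.8% and 13.0%. The part of these shares in the Pgf ratio was not tested. Angpt2, a destabilising ligand of TIE2, was at 26.3 and 39.5 CPM (log2 0.59), and Pdgfb, which recruits pericytes, at 184 and 227 CPM (log2 0.30). Esm1, a VEGF-induced proteoglycan, was at 95.7 and 68.6 CPM (log2 -0.48). Among VEGF and Tie pathway genes, Kdr, which served in the rule, was at 443 and 433 CPM. Flt1, the decoy VEGF receptor, was at 550 and 441 CPM (log2 -0.32, -0.41 to -0.23). Peripheral capillary genes summed to 3230 and 3460 CPM (log2 0.10), and Plvap was at 265 and 276 CPM.

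Edn1 was the gene of the flow and tone list with the clearest difference. It had 553 UMIs in library 1 and 2376 in library 2, at 186 and 341 CPM (log2 0.87, 0.74 to 1.01). The difference was present within cluster 1 (305 and 526 CPM, log2 0.78) and within cluster 2 (143 and 245 CPM, log2 0.78), but in cluster 6 it was 0.11 (-0.34 to 0.57). With every cell thinned to 2000 UMIs, Edn1 was found in 22.2% and 36.6% of cells, against 59.5% and 71.3% before thinning. Library 2 was also higher in lymphatic endothelial cells (log2 0.54) and in cells without a rule UMI (log2 1.25). Klf2, a factor induced by laminar flow, was at 640 and 576 CPM (log2 -0.15), in the opposite direction.

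**Figure D4:**
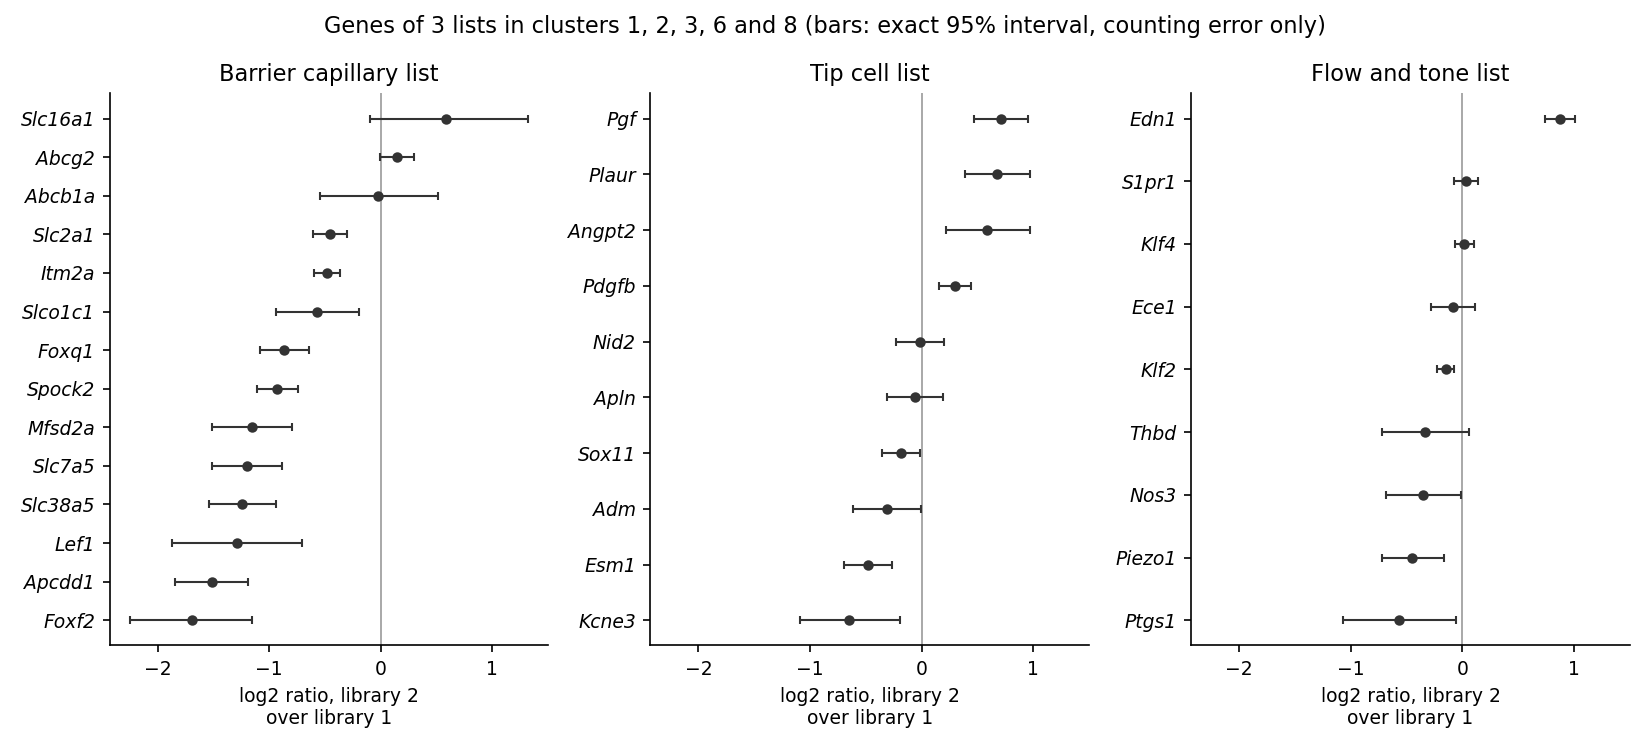
Log2 ratio (library 2 over library 1) of the genes of 3 lists with at least 100 UMIs in the 5 endothelial clusters, with exact 95% intervals. In the barrier capillary panel 11 of 14 intervals lie below 0, and in the flow and tone panel Edn1 alone lies above 0.

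BMP and TGF-beta pathway genes summed to 3708 and 4186 CPM (log2 0.18, 0.14 to 0.21). Id3, a BMP target that blocks helix-loop-helix factors, made up 42.5% of the sum and was at 1362 and 1871 CPM (log2 0.46, 0.41 to 0.51). Id2 was at 189 and 253 CPM (log2 0.42), while Id1 was at 961 and 862 CPM (log2 -0.16), so the 3 targets did not share a direction. Ccn2, a matrix protein induced by TGF-beta and by YAP, was at 64.1 and 139 CPM (log2 1.12, 0.90 to 1.35), and within cluster 2 at 61.7 and 151 CPM. Basement membrane genes had a log2 ratio of 0.03 as a sum. Junction genes had -0.05 with the rule genes Pecam1 and Cdh5 in the list and -0.12 (-0.16 to -0.08) without them.

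Cell cycle genes were lower in library 2 as a sum, with 1539 and 1254 CPM (log2 -0.30, -0.35 to -0.24). Of 17 intervals, 12 lay below 0, against 16.3% of all genes tested. Top2a, a topoisomerase of dividing cells, was at 242 and 179 CPM (log2 -0.44). Mki67, a proliferation marker, was found in 45.4% and 48.9% of cells, and in 12.4% and 14.7% after thinning to 2000 UMIs, with intervals that included 0. The cycling cluster 2 held 18.6% and 23.2% of the cells that met the rule. The share of cells with any of the 18 genes, after thinning to 2000 UMIs, was 74.1% and 68.1%, and the interval of that ratio included 0 (log2 -0.12, -0.28 to 0.04). With 4000 UMIs it was 89.1% and 81.7%, and that interval lay below 0 (log2 -0.12, -0.23 to -0.02). Before thinning it was 96.8% and 94.3%. In cells without a rule UMI the list differed by more (log2 -0.83), and in lymphatic endothelial cells by less (log2 -0.19).

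Among p53 targets, 3 of 7 intervals lay above 0 and none below, against 13.2% and 16.3% of all genes tested. Cdkn1a, the cell cycle inhibitor p21, was at 242 and 319 CPM (log2 0.40, 0.28 to 0.52), and Mdm2, which degrades p53, at 64.4 and 87.6 CPM (log2 0.44, 0.21 to 0.69). The share of cells with a Cdkn1a UMI was 63.8% and 69.7%, an interval that included 0 (log2 0.13, -0.06 to 0.31). It also did after thinning to 2000 UMIs (log2 0.12, -0.24 to 0.48) and to 4000 UMIs (log2 0.28, -0.01 to 0.58). Over all cells that met the rule the intervals of this share lay above 0. The log2 ratios there were 0.18 before thinning, 0.60 at 2000 UMIs and 0.41 at 4000 UMIs. Both genes had positive ratios too in lymphatic endothelial cells (log2 0.68 and 0.23) and in cells without a rule UMI (log2 0.34 and 0.21). SR proteins, the family of SRSF2, summed to 2366 and 2394 CPM (log2 0.02). Of 12 intervals, 3 lay above and 3 below 0, against 13.2% and 16.3% of all genes tested. Srsf1 was at 79.6 and 58.9 CPM (log2 -0.43), and Srsf5 at 302 and 378 CPM (log2 0.32).

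Genes that respond to tissue dissociation differed in both directions. Egr1, an immediate early gene, was at 417 and 189 CPM (log2 -1.14, -1.25 to -1.02) and Jun at 1707 and 1209 CPM (log2 -0.50), whereas Hspa1a, a heat shock gene, was at 122 and 214 CPM (log2 0.81). In cells without a rule UMI, Egr1 and Jun had the opposite sign (log2 0.24 and 0.60). The stress list was also high in cluster 6, at 20437 CPM against 11473 CPM in the other cells that met the rule. In the arterial-like cluster 8 it was at 17378 CPM against 11909 CPM. The part of dissociation in the differences above was not tested.

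At both ends of the ranking the first genes rested on few cells, while others were spread over many. In the endothelial clusters the lowest ratio was that of Actc1, a cardiac and embryonic muscle actin, with 308 and 15 UMIs, of which 3 cells held 70.3%. The highest was that of Cma1, a mast cell protease, with 4 and 369 UMIs, 76.9% of them in 3 cells, followed by Cpa3, another mast cell protease, and by the embryonic globin Hbb-y (95.7% in 3 cells). Cyp1a1, the cytochrome P450 induced through the aryl hydrocarbon receptor, had 144 and 1206 UMIs (log2 1.83, 1.58 to 2.09), 8.74% of them in 3 cells. Its log2 ratio was 2.93 in cluster 1 and 1.15 in cluster 2, 0.94 in lymphatic endothelial cells and 2.70 in cells without a rule UMI. Cwc22, a spliceosome-associated factor that loads the exon junction complex, had 47 and 393 UMIs (15.8 and 56.4 CPM, log2 1.83, 1.39 to 2.30), 5.68% of them in 3 cells, with 1.96 in lymphatic endothelial cells and 1.70 in cells without a rule UMI. Ccl2, a monocyte chemokine, had 37 and 338 UMIs (log2 1.96), of which 3 cells held 18.4%.

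Genes of other tissues moved with the libraries too. The 10 skeletal muscle genes summed to 217 and 19.5 CPM in the endothelial clusters (log2 -3.47, -3.75 to -3.21), and Actc1 made up 41.4% of them. Cluster 6, the barrier capillary-like cluster, held 312 of the 644 UMIs of the list in library 1 and 4 of the 136 in library 2. Cluster 3 held 205 and 17, and in library 1 142 of its UMIs lay in 5 cells with fewer than 6 identity genes. With every cell under 6 identity genes left out, a step added once the values were known, the sums were 173 and 19.5 CPM (log2 -3.15, -3.43 to -2.87). The same list had a log2 ratio of -2.80 in cells without a rule UMI and -1.99 in lymphatic endothelial cells. Pericyte and smooth muscle genes summed to 143 and 31.7 CPM (log2 -2.17), and mesenchyme genes to 446 and 284 CPM (log2 -0.65). Erythroid genes, led by Hbb-bs, summed to 24427 and 29553 CPM (log2 0.27). These genes mark other cell types, and their part in the differences above was not tested. The Y-linked gene Ddx3y had 200 and 547 UMIs (67.4 and 78.5 CPM), and Xist 1 and 0 UMIs, so sex-linked genes did not separate the libraries.

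**Figure D5:**
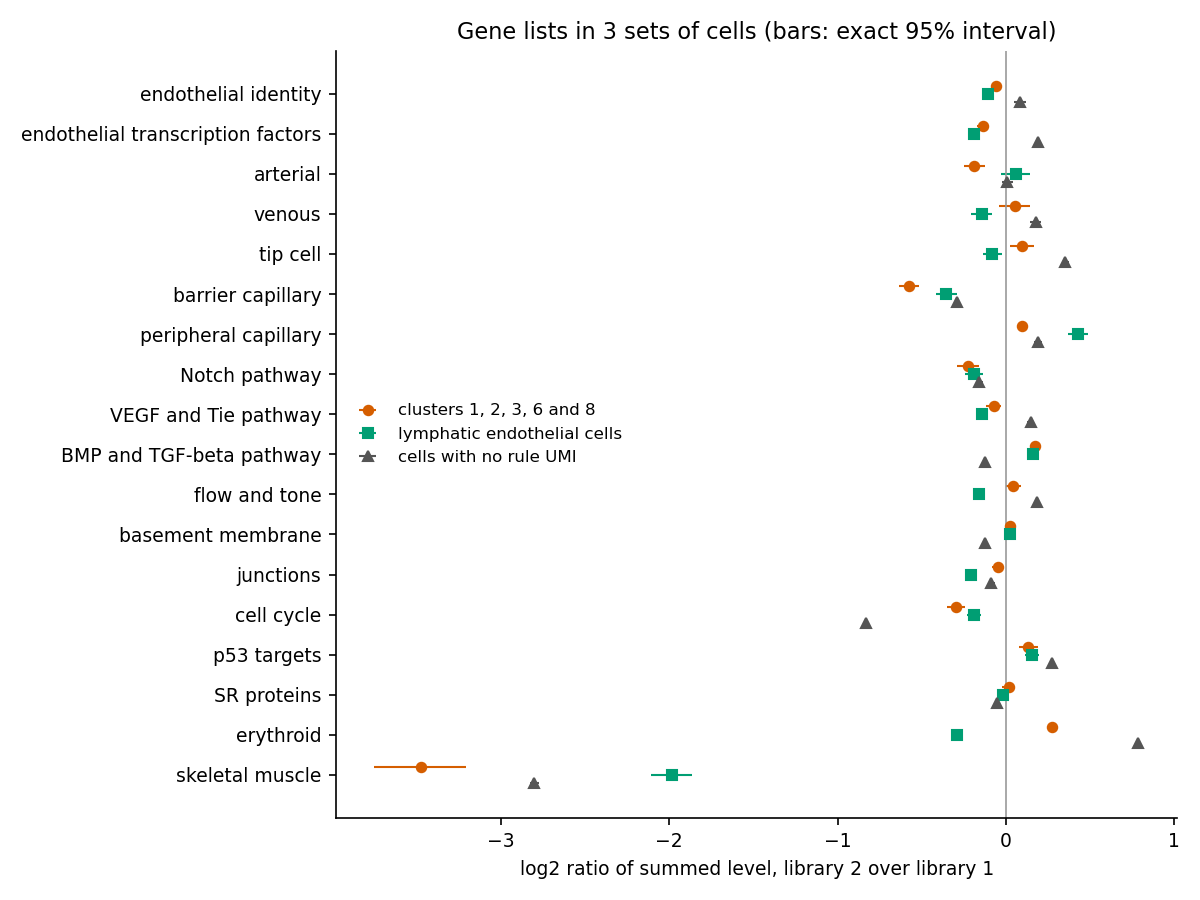
Log2 ratio (library 2 over library 1) of the summed level of 18 gene lists in the 5 endothelial clusters (circles), lymphatic endothelial cells (squares) and cells without a UMI of Pecam1, Kdr or Cdh5 (triangles), with exact 95% intervals. The skeletal muscle list is lower in library 2 in all 3 sets of cells, at -3.47, -1.99 and -2.80, and the barrier capillary list is at -0.57 in the endothelial clusters.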

How the data were processed

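The authors counted UMIs per gene and cell with Cell Ranger (version 5.0.0 in the file header) against mm10, introns not included, and pooled the libraries with down-sampling. The submitters' notes also list Cell Ranger 3.1.0 and Seurat 3.1.1. The deposited matrix held raw UMI counts of 32285 genes and 27766 barcodes. Libraries were told apart by barcode suffix, matched to a sample through its exact cell number. Each library had 571426356 and 575393483 reads, and the matrix held 156093779 and 128116615 UMIs. The deposited per-library metrics, counts and percent values, were used only for this.

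The members and gene lists were chosen with earlier results of these data known. UMIs were summed per library and divided by the total (CPM). Ratios of levels have exact conditional binomial intervals, and shares exact Clopper-Pearson intervals. Ratios of shares have log intervals from a normal approximation, which are not exact. Genes with at least 100 UMIs over both libraries were compared, and past 2-fold counts as called. Over 32 lists, 348 genes were in the matrix. Genes named are those of the lists, the 10 highest and lowest ratios, the 25 most specific genes, and the 10 leading genes of each cluster. Clusters came from 1500 variable genes, 20 principal components, 20 neighbours and Leiden resolution 0.6 (leidenalg 0.10.2, Python 3.11.15, SciPy 1.17.1). Doublets were not called. Reads are counted at the 3′ end, so levels are compared between cells and not between genes. In the 2 libraries 74 barcode sequences were shared. The intervals of level ratios were tested only on independent counts simulated per gene. That test holds no spread between cells, so it does not cover genes whose UMIs lie in few cells.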

Additional observations from a re-analysis of the deposited data

How the results depend on the processing

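No paired analysis was possible because each genotype label has 1 library and no test was made; for the same reason no library could be left out. Log2 ratios below are library 2 over library 1 in all cells that met the rule, and the causes of the shifts were not tested. The ratio of the endothelial share, 1.24, was 1.55 with a mitochondrial limit of 5%, 1.01 with no lymphatic UMI allowed and 0.98 in cells under 3 muscle UMIs. The percent of genes past 2-fold, 1.36, was 0.656 after thinning to 2000 UMIs, 2.22 at a minimum of 50 UMIs per gene and 0.857 at 200, and in lymphatic endothelial cells it went from 1.71 to 3.16 and 1.01 at those minimums. With the 5% mitochondrial limit the arterial ratio was 0.0015, venous -0.054, tip cell 0.10, barrier capillary 0.012, peripheral capillary -0.059 and that of Slc38a5 turned to 0.091. With at least 5 rule UMIs the arterial, venous, barrier and peripheral ratios were -0.28, -0.046, -0.53 and -0.013, and with at least 10 they were -0.26, -0.045, -0.56 and -0.012. With at least 6, an alternative chosen after seeing the data, arterial was -0.27, barrier -0.54 and peripheral 0.0028. As a mean over cells, arterial was -0.26, tip cell -0.055, barrier -0.35 and peripheral 0.15, and with the median gene ratio set to 0, barrier was -0.36 and peripheral 0.15. As the share of cells with 3 or more list UMIs after thinning to 2000, the ratios were -0.032 for arterial, 0.23 for venous, -0.092 for tip cell, -0.029 for barrier and 0.045 for peripheral genes. In the 5 endothelial clusters, also chosen after seeing the data, tip cell was 0.10 and barrier -0.57, Ptprc turned to -0.23 and Krt14 to -0.19, and Krt14 was -0.42 after thinning. The member-share ratio of cluster 1, 0.59, was 0.046 at Leiden resolution 0.3 and 0.13 with 30 principal components, where cluster 3 overlapped its best match by a Jaccard index of 0.31 and 0.30. Of 2853 gene ratios under alternatives, 2289 stayed within the interval of the first value, and 291 had the other sign, among them the 4 named above, where the first value was past 2-fold. Of 270 list ratios, 129 stayed within it and 141 did not, and 26 had the other sign. Depth limits genes under 100 UMIs, and clusters 7 and 8 with 27 and 24 cells.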
